A study of Homo sapiens with 13 samples.

Results

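Heat shock proteins and DNAJ proteins are the main families of molecular chaperones, and they were examined here in CCRF-CEM, a line of human T lineage acute lymphoblastic leukemia cells, with and without acquired resistance to FK866, an inhibitor of the NAD+ producing enzyme NAMPT. The genes were taken by name from the array design and comprise the HSPA (HSP70 and HSP110), HSPB (small heat shock protein), HSP90 and DNAJA, DNAJB and DNAJC series with HSPD1, HSPE1 and HSPH1. The design holds 83 such names among its 25940 gene names, measured by 116 of the 34127 probes. Of these 83 names, 70 passed the filter on dim signal and were tested. The remaining 13, among them DNAJB3, DNAJB7, DNAJB8, DNAJC5B, DNAJC5G, HSPA12A, HSPB2, HSPB3, HSPB7 and HSPB8, were well above background on 0 to 8 of the 13 arrays. The genes were placed by textbook knowledge in the cytosol or nucleus (36 names, 29 tested), the endoplasmic reticulum (ER; 13 names, all tested) and the mitochondria (8 names, all tested). The other 26 names, of which 20 were tested, are copies, antisense transcripts and genes whose compartment is elsewhere or was not certain.

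RNA was hybridized to 1-colour Agilent Human GE 4x44K v2 arrays, 1 sample per array. Parental cells (CEM PA) were mock treated with DMSO (n = 3) or exposed to 5 nM FK866 for 48 h (n = 2). The derived resistant cells (CEM RES) were mock treated (n = 4) or exposed to the same dose for the same time (n = 4). CEM RES is a population selected by stepwise increase of FK866 until resistant to 100 nM and kept in the drug, so its mock-treated samples were not drug-naive. The labels call the samples biological replicates, and p values measure the spread between these arrays.

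Chaperones bind unfolded stretches of proteins and help them fold, cross membranes or be degraded. HSP70 proteins work by cycles of ATP binding and hydrolysis that DNAJ (HSP40) partners start and nucleotide exchange factors such as HSPH1 complete, while HSP90 dimers act later on clients such as kinases and receptors. Cytosol, ER and mitochondria each hold their own HSP70, which are HSPA8 and the heat-inducible HSPA1A and HSPA1B in the cytosol, HSPA5 (BiP) in the ER and HSPA9 (mortalin) in the mitochondrial matrix. Unfolded protein in the cytosol induces chaperone genes through heat shock factor 1, which binds repeated GAA units, and unfolded protein in the ER induces its own chaperones through ATF6, XBP1 and the PERK branch.

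The promoters of the canonical ER chaperones carry the letters of the ER stress response element (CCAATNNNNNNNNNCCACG, or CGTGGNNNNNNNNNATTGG on the other strand). Shown are the 250 bases before the annotated start of HSPA5 and HSP90B1, the main ER HSP70 and HSP90, and of DNAJC3, an ER DNAJ protein that is followed through all comparisons below, with matches in capitals (RefSeq, GRCh38.p14, chr9:125241344-125241593 on the minus strand, chr12:103930160-103930409 and chr13:95676889-95677138 on the plus strand).
HSPA5: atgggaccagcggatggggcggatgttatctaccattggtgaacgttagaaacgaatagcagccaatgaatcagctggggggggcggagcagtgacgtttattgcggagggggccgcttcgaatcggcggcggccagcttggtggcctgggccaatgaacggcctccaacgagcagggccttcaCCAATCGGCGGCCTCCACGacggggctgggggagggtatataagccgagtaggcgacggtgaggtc
HSP90B1: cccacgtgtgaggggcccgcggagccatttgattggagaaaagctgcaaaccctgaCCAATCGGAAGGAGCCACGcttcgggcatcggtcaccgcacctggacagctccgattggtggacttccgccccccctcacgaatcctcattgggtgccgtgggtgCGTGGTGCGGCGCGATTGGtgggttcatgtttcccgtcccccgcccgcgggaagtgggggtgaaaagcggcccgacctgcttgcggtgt
DNAJC3: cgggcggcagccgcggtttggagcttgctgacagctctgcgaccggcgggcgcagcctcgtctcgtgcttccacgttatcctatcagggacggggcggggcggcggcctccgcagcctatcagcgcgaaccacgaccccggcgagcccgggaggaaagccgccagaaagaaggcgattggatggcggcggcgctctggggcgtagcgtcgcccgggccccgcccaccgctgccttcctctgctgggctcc
HSPA5 held 1 match, from 66 to 48 bases before the start, and HSP90B1 held 2, from 194 to 176 and from 89 to 71 bases before it. DNAJC3 held no match in this window. The element was present in 27 of 35116 promoter windows (0.0769%), each running from 250 bases before to 50 after a start, and in those of 2 of the 66 chaperone genes with a window. The 66 genes had 85 windows, so counts of genes and shares of windows are not on the same scale.

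For the heat shock element, 3 units in alternating direction were searched (GAANNTTCNNGAA, or TTCNNGAANNTTC on the other strand). It was present in 172 of the 35116 windows (0.49%). Of the 66 chaperone genes, with 85 windows, 7 held it in any of their windows. These were DNAJA1, DNAJB6, HSP90AA1, HSP90AB1, HSPA6, HSPA8 and HSPD1. Shown with matches in capitals are HSP90AB1 and HSPA6, which differed between the lines in opposite directions, and HSPD1, a mitochondrial chaperonin gene (RefSeq, GRCh38.p14, chr6:44247693-44247942 and chr1:161524290-161524539 on the plus strand, chr2:197499841-197500090 on the minus strand). For HSP90AB1 and HSPD1 the window with the matches was chosen, out of 3 and 2 windows.
HSP90AB1: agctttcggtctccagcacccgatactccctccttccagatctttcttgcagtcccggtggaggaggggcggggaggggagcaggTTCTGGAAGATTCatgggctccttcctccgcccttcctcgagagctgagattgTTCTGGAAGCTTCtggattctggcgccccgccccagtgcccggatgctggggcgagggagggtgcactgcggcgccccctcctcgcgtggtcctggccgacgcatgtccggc
HSPA6: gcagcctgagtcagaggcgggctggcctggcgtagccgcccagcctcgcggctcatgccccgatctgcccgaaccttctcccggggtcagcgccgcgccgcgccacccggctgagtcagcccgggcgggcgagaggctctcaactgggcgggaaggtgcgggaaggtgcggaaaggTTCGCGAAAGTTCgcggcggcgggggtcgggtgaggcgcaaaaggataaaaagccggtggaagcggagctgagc
HSPD1: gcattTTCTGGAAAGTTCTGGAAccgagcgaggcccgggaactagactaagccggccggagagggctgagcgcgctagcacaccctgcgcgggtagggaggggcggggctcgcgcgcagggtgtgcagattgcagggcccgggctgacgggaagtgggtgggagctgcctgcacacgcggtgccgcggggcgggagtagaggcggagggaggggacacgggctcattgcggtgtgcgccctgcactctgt
HSPA6 held its match from 74 to 62 bases before the start, and the 2 matches of HSPD1 overlap. A match describes these letters and does not show that a factor bound them.

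On each array, 61.4% to 77.1% of the 43118 spots were well above background and 0 were saturated. All 12 T lineage markers were well above background on all 13 arrays, the epithelial genes EPCAM and CDH1 and the fibroblast genes COL1A1, COL3A1 and LUM on 0. The arrays fall into 3 scan sessions. The first held 1 mock and 1 FK866 array of CEM PA, the second the other CEM PA arrays and the third all CEM RES arrays. Cell line and scan session therefore cannot be told apart in any comparison of CEM RES with CEM PA. All values below are log2 normalized intensities, compared within a gene only, and differences are on the log2 scale with standard errors from limma. A gene is called at a Benjamini-Hochberg adjusted p under 0.05 over the 17594 genes tested. Probe positions are those of the array design on hg19.

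Mock-treated CEM RES differed from mock-treated CEM PA in chaperone genes of all compartments, in both directions. Of the 70 tested genes 32 were called, 17 higher and 15 lower in CEM RES. This is 45.7% of the chaperone genes, beside 47.7% of all genes tested (24.7% higher and 23% lower), so the share was near that of the array as a whole. The median difference was 0.13 over the chaperone genes and 0.04 over all genes. By compartment, 6 of the 8 mitochondrial chaperones were higher and 0 lower, 2 of the 13 ER chaperones were higher and 3 lower, and 4 of the 29 cytosolic or nuclear chaperones were higher and 8 lower. The median difference was 0.63 in mitochondria, -0.11 in the ER and 0.17 in the cytosol and nucleus. These counts and medians hold for this placement only. Genes left unplaced were called in both directions, with DNAJC28 among the lower ones. Of the 32 calls, 24 held in every alternative that tested them, each array left out in turn included. There were 28 such alternatives, or 27 for DNAJA4 and HSPA12B, which did not pass the stricter filter on dim signal. Where each probe was tested by itself, a second probe that was not called did not count against a call. HSP90B1, DNAJB5 and DNAJC30 are such genes among the 24. In bulk RNA such as this, fewer cells that express a gene and less of its RNA per cell cannot be told apart.

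**Figure D1:**
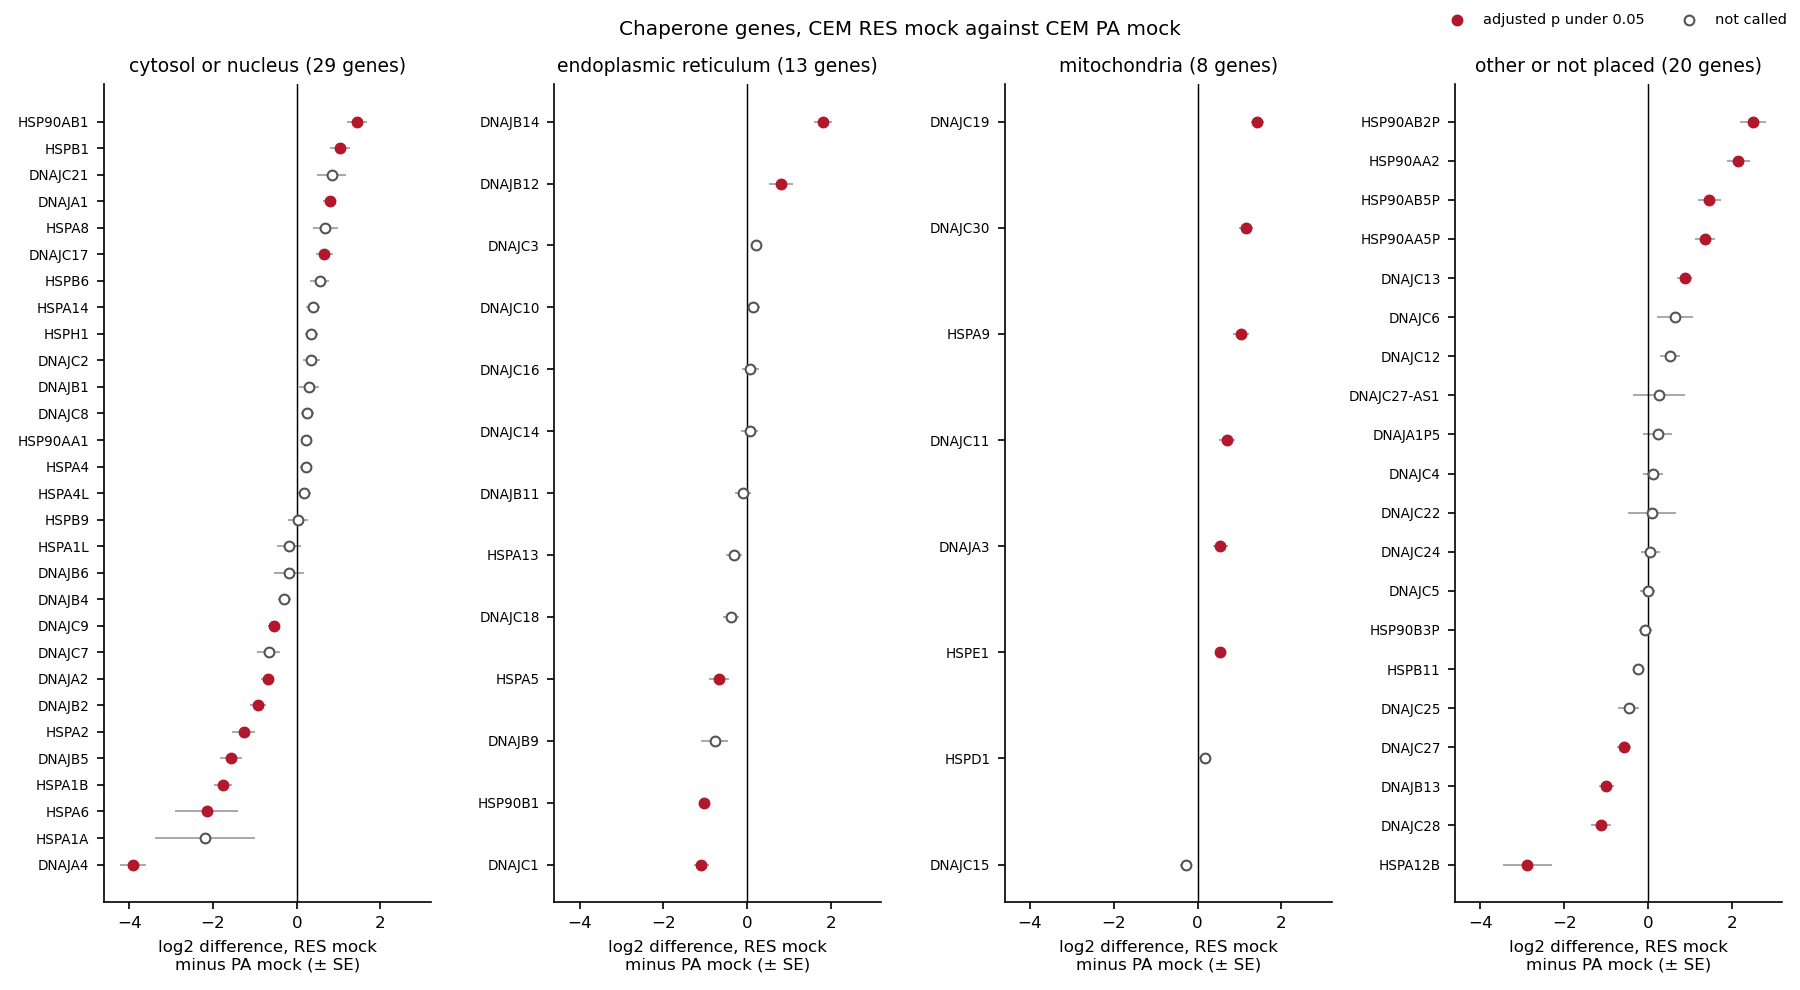
Log2 difference between the lines in their mock-treated state (4 CEM RES and 3 CEM PA arrays) for the 70 tested chaperone genes, with bars of 1 standard error, by compartment. Filled red points passed an adjusted p of 0.05 and open points did not. In the mitochondrial panel 6 of 8 genes are called and lie to the right of 0, while the other panels hold called genes on both sides.

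In the ER, the HSP90 of this compartment, HSP90B1 (GRP94; probe at chr12:104341536-104341595), was at 15.97, 15.87 and 16.16 in mock-treated CEM PA and at 14.99, 14.92, 15.03 and 14.94 in mock-treated CEM RES. All CEM RES arrays lay below all CEM PA arrays, by 1.03 ± 0.13 on the log2 scale (2.04-fold lower, adjusted p = 6.83e-05, limma). A second HSP90B1 probe differed by -0.39 and was not called (adjusted p = 0.204). HSPA5, the HSP70 of the ER (probe at chr9:127997149-127997208), was at 10.37, 10.31 and 9.83 in CEM PA mock and at 9.89, 9.80, 8.97 and 9.32 in CEM RES mock. These values overlap, and the difference of -0.68 ± 0.24 (adjusted p = 0.0322) was no longer called without mock replicate 1 or 2 of CEM PA or mock replicate 3 or 4 of CEM RES, with an adjusted p between 0.00318 and 0.132 over the alternatives. HSP90B1 and HSPA5 were the 2 chaperone genes with an ER stress response element in the window. Among all genes tested 23% were called lower, and whether the element goes with a direction was not tested.

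DNAJC1, a membrane DNAJ protein that faces the ER lumen and the ribosome, was at 13.17, 13.42 and 13.58 in CEM PA mock and between 12.07 and 12.67 in CEM RES mock. The groups did not overlap, and the difference was -1.09 ± 0.18 (adjusted p = 0.000491). Another DNAJC1 probe differed by 0.24 and was not called, and with the mean of both probes the call was lost (adjusted p = 0.165). DNAJB14, an ER membrane DNAJ protein with a role in ER-associated degradation, went the other way. It was at 7.98, 8.29 and 8.76 in CEM PA mock and at 10.30, 9.98, 10.44 and 9.89 in CEM RES mock, 3.5-fold higher (1.81 ± 0.22, adjusted p = 5.26e-05). Its close relative DNAJB12 was 0.81 ± 0.28 higher (adjusted p = 0.0318), a call lost without mock replicate 1 or 3 of CEM PA or mock replicate 2 or 3 of CEM RES. The stress-induced lumenal DNAJB9 (-0.78, adjusted p = 0.0705), DNAJB11 (-0.11, adjusted p = 0.665) and DNAJC3 (0.22, adjusted p = 0.19) were not called, though a second, dimmer DNAJC3 probe was (1.64, adjusted p = 0.028). The DNAJB9 value rests on mock replicate 1 of CEM RES, at 9.24 where the others were at 10.78 to 10.91. Without it the difference was -0.37 (adjusted p = 0.042), and without mock replicate 2 it was -0.93 (adjusted p = 0.046).

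**Figure D2:**
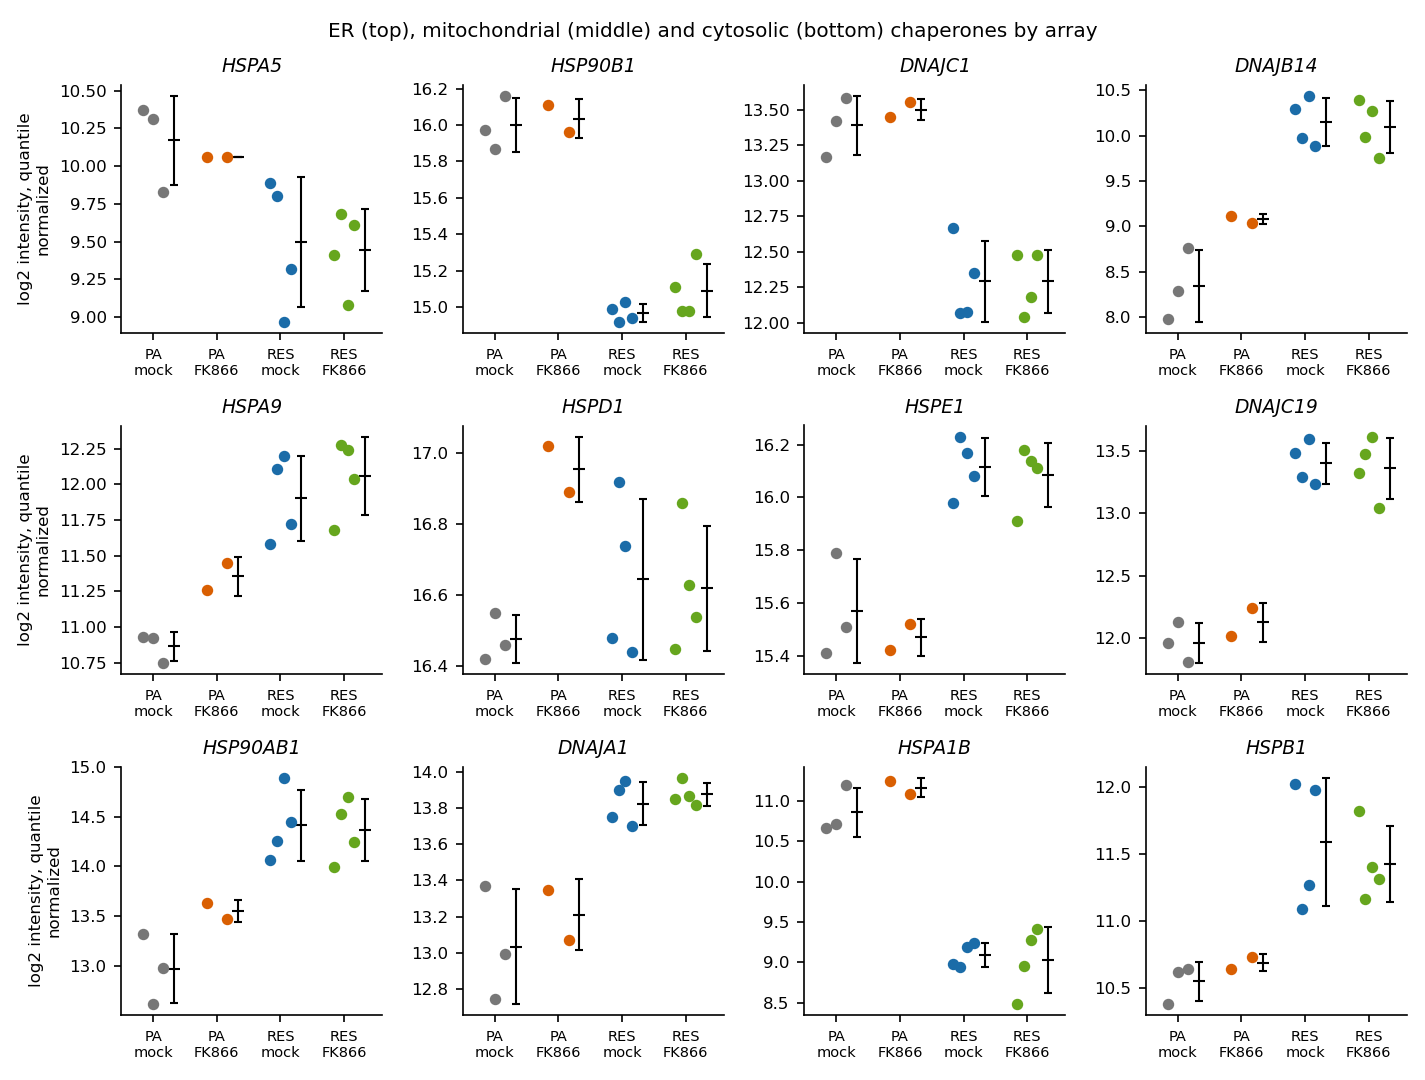
Log2 normalized intensity of 12 chaperone genes on each array (points), with the mean ± SD of each group, for CEM PA mock (3 arrays), CEM PA FK866 (2), CEM RES mock (4) and CEM RES FK866 (4). The top panels show ER, the middle panels mitochondrial and the bottom panels cytosolic chaperones. In most panels the step lies between the cell lines, as for DNAJC19 with 11.81 to 12.24 in CEM PA and 13.04 to 13.61 in CEM RES.

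In mitochondria, the matrix HSP70 HSPA9 (probe at chr5:137891504-137891563) was at 10.93, 10.92 and 10.75 in CEM PA mock and at 11.58, 12.11, 12.20 and 11.72 in CEM RES mock. The groups were apart by 1.04 ± 0.19 (2.05-fold higher in CEM RES, adjusted p = 0.000923). DNAJC19, a partner of the import motor at the inner membrane (chr3:180705837-180705977), was at 11.96, 12.13 and 11.81 against 13.48, 13.29, 13.59 and 13.23, the most significant of the mitochondrial differences (1.43 ± 0.16, 2.69-fold, adjusted p = 3.82e-05). DNAJC30, an inner membrane protein linked to ATP synthase and complex I, was at 10.02, 10.08 and 9.64 in CEM PA mock and between 10.86 and 11.17 in CEM RES mock (1.15 ± 0.16, adjusted p = 0.000155). A second DNAJC30 probe differed by -0.09 and was not called.

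The chaperonin pair gave unlike results. HSPE1, the lid of the mitochondrial chaperonin (HSP10), was at 15.41, 15.79 and 15.51 in CEM PA mock and at 15.98, 16.23, 16.17 and 16.08 in CEM RES mock, 0.54 ± 0.14 higher without overlap (adjusted p = 0.0061). HSPD1, the barrel of the same chaperonin (HSP60; chr2:198351381-198351440), was at 16.42, 16.55 and 16.46 against 16.48, 16.92, 16.74 and 16.44, which overlap, and its difference of 0.17 was not called (adjusted p = 0.389). Both genes share 1 promoter region in opposite orientation, and whether their 2 differences differ from each other was not tested. DNAJC11, a protein of the mitochondrial membrane contact complex (0.70 ± 0.18, adjusted p = 0.0071), and DNAJA3, the matrix DNAJ partner of HSPA9 (0.55 ± 0.18, adjusted p = 0.0256), were also higher. The DNAJA3 call was lost without any 1 of the CEM PA mock arrays or without mock replicate 2 or 3 of CEM RES. DNAJC15, a relative of DNAJC19 that regulates the same motor, differed by -0.28 (adjusted p = 0.141).

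In the cytosol, the constitutive HSP90 HSP90AB1 (chr6:44219983-44220819) was at 13.32, 12.62 and 12.98 in CEM PA mock and at 14.06, 14.25, 14.89 and 14.45 in CEM RES mock. It was 2.71-fold higher in CEM RES without overlap (1.44 ± 0.23, adjusted p = 0.000415). The inducible HSP90AA1 was at 17.25 to 17.40 against 17.37 to 17.68 by its brightest probe, which was not called (0.23, adjusted p = 0.156), whereas its other 2 probes were called higher (1.67, adjusted p = 0.000866, and 2.10, adjusted p = 0.00452). DNAJA1, a farnesylated partner of HSPA8, was higher in CEM RES (12.74 to 13.37 against 13.70 to 13.95, 0.79 ± 0.16, adjusted p = 0.0015). HSPA8 itself, at 14.49, 14.29 and 14.78 against 14.64, 15.27, 15.82 and 15.10, was not called (0.69 ± 0.30, adjusted p = 0.0744) unless mock replicate 1 of CEM RES was left out (0.88, adjusted p = 0.0265), and its other probes differed by -0.21 and 0.30. HSPB1 (HSP27), a small heat shock protein that holds unfolded clients, was at 10.38, 10.62 and 10.64 in CEM PA mock and at 12.02, 11.09, 11.27 and 11.98 in CEM RES mock (1.04 ± 0.24, adjusted p = 0.00372), a call lost with the mean of its probes (adjusted p = 0.0914).

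The lower cytosolic genes included members of the heat-inducible HSP70 family. HSPA1B was at 10.66, 10.71 and 11.20 in CEM PA mock and at 8.98, 8.95, 9.19 and 9.24 in CEM RES mock, 3.4-fold lower without overlap (-1.76 ± 0.22, adjusted p = 6.29e-05). HSPA1A, which encodes a nearly identical protein so that the 2 transcripts share most of their sequence, was at 5.62, 5.31 and 6.85 against 1.30, 2.64, 5.73 and 5.25 and was well above background on 2 of the 4 CEM RES mock arrays. Its difference was not called (adjusted p = 0.151). HSPA6, induced by severe stress in human cells, was at 7.91, 9.57 and 9.84 against 6.37, 5.67, 8.30 and 7.47 (-2.15 ± 0.75, adjusted p = 0.032), with overlap, and its call was lost without mock replicate 2 or 3 of CEM PA or mock replicate 1 or 2 of CEM RES. Its other probes differed by -2.02 (adjusted p = 0.00383) and -0.19. HSPA2, a testis-enriched HSP70, was also lower (-1.26, adjusted p = 0.00259).

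Among cytosolic DNAJ genes, DNAJA4 was at 6.24, 6.27 and 6.44 in CEM PA mock and at 1.41, 2.99, 2.23 and 3.03 in CEM RES mock, where 1 of 4 arrays was well above background. It was at least 7.2-fold lower in CEM RES (adjusted p = 4.1e-06, limma). The bound takes, on each CEM RES array, the lowest signal that was well above background where the probe itself lay below it. DNAJB5 was lower (-1.56, adjusted p = 0.000528) by the probe used, while another DNAJB5 probe differed by 0.02. DNAJB2, which carries ubiquitin interaction motifs (-0.92, adjusted p = 0.0022), DNAJA2 (-0.69, adjusted p = 0.0026) and the histone-binding DNAJC9 (-0.55, adjusted p = 0.00446) were lower as well. DNAJC17 was higher (0.66, adjusted p = 0.0171), a call lost without mock replicate 3 of CEM PA. DNAJB1, the main inducible partner of HSP70, did not pass the test (0.29, adjusted p = 0.318), but without mock replicate 1 of CEM RES, at 9.97 where the others were at 10.92 to 11.00, it was called (0.54, adjusted p = 0.00936). Also not called was the nucleotide exchange factor HSPH1 (0.35, adjusted p = 0.0867), although it was without mock replicate 3 of CEM RES (0.45, adjusted p = 0.0361) and another HSPH1 probe was called higher (0.87, adjusted p = 0.000946).

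Of the 7 genes with the 3-unit pattern in the window, HSP90AB1 and DNAJA1 were called higher in mock-treated CEM RES and HSPA6 was called lower. DNAJB6, HSP90AA1, HSPA8 and HSPD1 were not called by the probe used, though other HSP90AA1 probes were called higher. The HSPA6 call was lost in 6 of 28 alternatives. Over all genes 47.7% were called in either direction, and whether the pattern goes with a call or a direction was not tested.

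Among genes not placed in the 3 compartments, 5 of 20 were higher and 4 lower in mock-treated CEM RES. Of the higher ones, 4 were copies of HSP90 genes: HSP90AB2P (2.51, 5.69-fold, adjusted p = 5.69e-05), HSP90AA2 (2.16, adjusted p = 8.26e-05), HSP90AB5P (1.47, adjusted p = 0.000901) and HSP90AA5P (1.36, adjusted p = 0.000908). The fifth tested copy, HSP90B3P, differed by -0.06. These copies are close in sequence to HSP90AA1, HSP90AB1 or HSP90B1, so the probes may bind the transcripts of the parent genes and their values are uncertain as measures of the copies. The fifth higher gene was DNAJC13, an endosomal protein (0.88, adjusted p = 0.00201). Lower were HSPA12B, an HSP70 relative of endothelium (at least 3.63-fold, well above background on 1 of 4 CEM RES mock arrays, adjusted p = 0.00183), DNAJC28 (-1.12, adjusted p = 0.00263), the ciliary DNAJB13 (-1.0, adjusted p = 0.000683) and DNAJC27 (-0.58, adjusted p = 0.0127, not called without mock replicate 3 of CEM PA).

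Probes of the same gene did not always give the same result. Of the 26 chaperone genes with more than 1 kept probe, 13 had only some of their probes called between the mock-treated lines, and in 5 of these 13 the probes differed in sign. Outside these 13, DNAJC27 had probes called in opposite directions (-0.58 and 1.08, the latter with adjusted p = 0.000895). For HSPB11 (IFT25, a subunit of the intraflagellar transport complex) the probe used differed by -0.23 and another by 1.27 (adjusted p = 0.0349), and for DNAJC10, an ER disulfide reductase, the probe used differed by 0.15 and another by -0.67 (adjusted p = 0.00152).

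**Figure D3:**
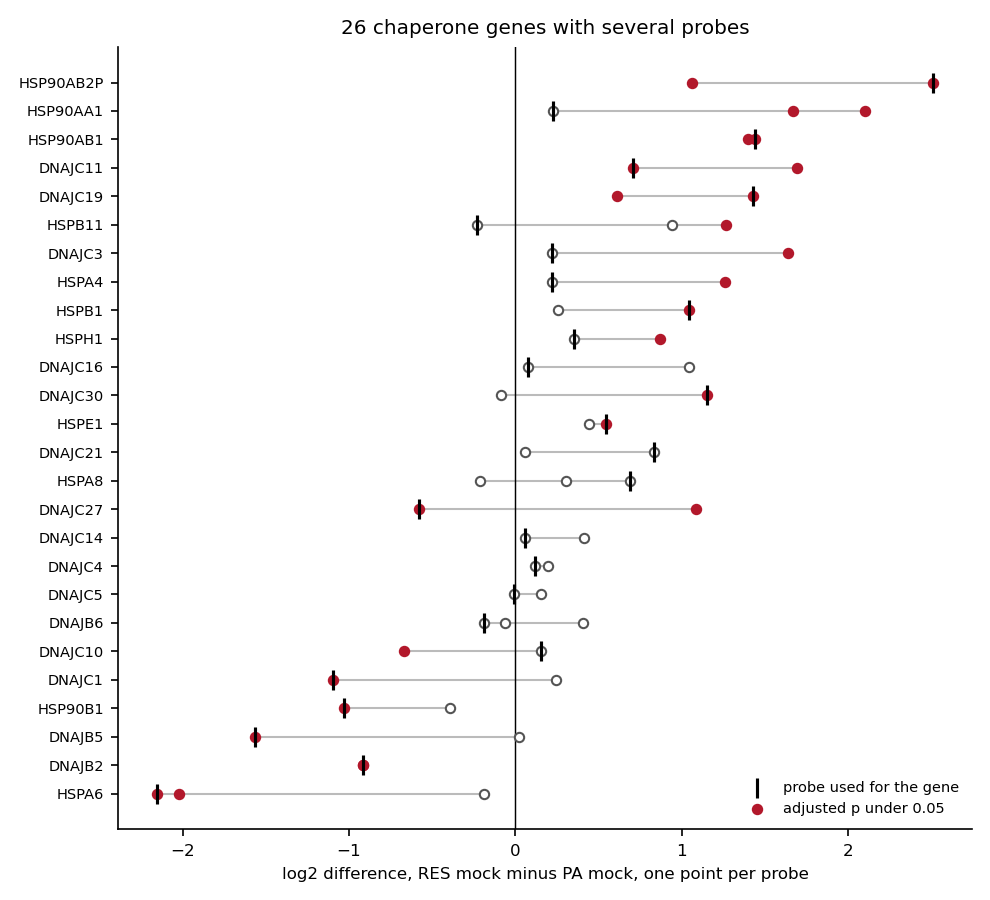
Log2 difference between mock-treated CEM RES and CEM PA for each kept probe (point) of the 26 chaperone genes with more than 1 kept probe, with the probe used for the gene marked by a bar. Filled red points passed an adjusted p of 0.05 over all probes and open points did not. Probes of HSPB11, DNAJC27 and DNAJC10 lie on both sides of 0.

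Under FK866 the line differences were taken from arrays other than those of the mock comparison. The spread was estimated over all 13 arrays, so the p values of both comparisons are not independent. Of the 70 genes 25 were called, 14 higher and 11 lower in CEM RES (35.7%, beside 35.5% of all genes, 18.6% higher and 16.9% lower). The genes called in both comparisons numbered 21, which is 65.6% of the 32 and 84% of the 25, and in all 21 the direction was the same (12 higher, 9 lower). Over all genes 4959 were called in both, which is 59.1% of 8389 and 79.5% of 6239, with the same direction in 99.4% of them, so the chaperone shares were near those of the array. Without FK866 replicate 1 or 2 of CEM PA the count dropped to 14 or 15, while that over all genes dropped to 3223 (18.3%) or 3788 (21.5%). Of the genes described next HSPA9, DNAJB9, HSP90AB1, HSPA14 and HSPB11 lost their calls without the former and HSPA9, DNAJB9, HSP90AB1, DNAJA1 and DNAJB14 without the latter. The calls of 7 genes (DNAJA4, DNAJC13, DNAJC19, DNAJC30, HSP90B1, HSPA12B and HSPA1B) held in every alternative that tested them. As above, a second probe that was not called did not count against a call.

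By compartment, 5 of 8 mitochondrial chaperones were higher under FK866 and 0 lower, with HSPA9 at 11.26 and 11.45 in CEM PA and between 11.68 and 12.28 in CEM RES (0.71, adjusted p = 0.0239). DNAJC30 differed by 1.54 (adjusted p = 0.000111) and DNAJC19 by 1.23 (adjusted p = 0.000433). The HSPA9 call was also lost without FK866 replicate 2 or 3 of CEM RES. In the ER 1 of 13 was higher (DNAJB14, 1.02, adjusted p = 0.00749) and 4 lower, which were HSP90B1 (-0.94, adjusted p = 0.000529), DNAJC1 (-1.21, adjusted p = 0.00103, not called with the mean of its probes, adjusted p = 0.0569), DNAJC3 (-1.15, adjusted p = 0.000192) and DNAJB9. The second DNAJC3 probe differed by 0.25 in the other direction and was not called, and with the mean of both the DNAJC3 call was lost (adjusted p = 0.324). DNAJB9, an ER DNAJ protein that assists degradation and binds HSPA5, was at 11.95 and 11.72 in CEM PA and between 10.73 and 10.88 in CEM RES (-1.04 ± 0.37, adjusted p = 0.0468), and the call was lost in 18 of 28 alternatives, among them each of the CEM PA arrays and each of the CEM RES FK866 arrays left out. HSPA5 was not called (-0.62, adjusted p = 0.0931), although its values of 10.06 and 10.06 in CEM PA and 9.08 to 9.68 in CEM RES did not overlap.

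In the cytosol and nucleus 3 of 29 were higher and 5 lower under FK866. HSP90AB1 differed by 0.81 (adjusted p = 0.0319), a call also lost without FK866 replicate 2 or 3 of CEM RES, DNAJA1 by 0.67 (adjusted p = 0.0125) and HSPA14, a ribosome-associated HSP70, by 0.74 (adjusted p = 0.00868). HSPA1B was at 11.25 and 11.08 in CEM PA and at 8.49, 8.96, 9.28 and 9.41 in CEM RES (-2.13, adjusted p = 9.26e-05), and DNAJA4 was at least 8.57-fold lower (well above background on 3 of 4 CEM RES FK866 arrays). HSPB11, outside the 3 compartments, was 0.58 higher in CEM RES (adjusted p = 0.0139).

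In CEM PA few chaperone genes were called for FK866, and with 2 against 3 arrays this does not show that the others were unchanged. The FK866 arrays are those used above between the FK866-exposed lines. Of 70 genes 1 was called, DNAJC3, beside 0.512% of all genes (90 of 17594). At an unadjusted p under 0.05, 10 of 70 passed, beside 13.5% of all genes. The double threshold of the study's methods (unadjusted p under 0.05 and an absolute log2 difference over 0.75) took 2, DNAJC3 and DNAJC12, beside 5.47% of all genes. DNAJC12 was at 6.35, 6.29 and 5.27 in mock and at 6.67 and 6.81 with FK866, and without mock replicate 3 its difference of 0.77 became 0.42, under the limit. The median difference was 0.13 over the chaperone genes and -0.02 over all genes, with 48 chaperone genes higher and 22 lower. They were read on the same arrays, so these counts are not of independent results. When the fit included a block for the replicate number, 3 genes were called in place of 1: DNAJC3, DNAJB14 and HSPB11. The same block raised the calls over all genes from 90 to 503 (2.86%).

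DNAJC3 (p58IPK; probe at chr13:96443238-96443297) is an ER lumen partner of HSPA5 that also inhibits the kinase PERK, and it is induced by ER stress. It was at 9.61, 9.77 and 9.87 in CEM PA mock and at 11.00 and 10.72 with FK866. The 2 FK866 arrays lay above the 3 mock arrays, and the difference was 1.11 ± 0.16 (2.15-fold, adjusted p = 0.0131). Within scan session 1 it was 1.39, and within session 2 it was 0.89. The call was lost in 8 of 28 alternatives, among them the mean of both probes (adjusted p = 0.13), the slide as a block (adjusted p = 0.18) and the fits without FK866 replicate 1 (0.14) or 2 (0.082) or without mock replicate 1 (0.05) or 2 (0.057), and it held with the replicate block (1.17, adjusted p = 0.031). A second, dimmer DNAJC3 probe, well above background on 9 of 13 arrays, differed by 1.41 and was not called (adjusted p = 0.365).

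No other ER chaperone was called. HSPA5 was at 10.06 and 10.06 with FK866, inside the range of its mock arrays (-0.11), HSP90B1 at 16.11 and 15.96 (0.03) and DNAJB9 at 11.95 and 11.72, above its 3 mock arrays at 11.06 to 11.40 (0.61, adjusted p = 0.557). DNAJB14 was at 9.12 and 9.04, above its mock arrays (0.74, adjusted p = 0.231; 0.95 with adjusted p = 0.0388 under the replicate block). HSPB11 was at 13.86 and 14.24 against 14.50, 14.85 and 14.92 in mock, a difference of -0.71 ± 0.17 (adjusted p = 0.087), or -0.63 with adjusted p = 0.0459 under the replicate block. Unadjusted p values under 0.05 that did not pass adjustment were also given by HSPD1 (0.48, 16.42 to 16.55 in mock and 17.02 and 16.89 with FK866), HSPH1 (0.51), HSPA4 (0.43), DNAJC2 (0.55), DNAJC12 (0.77), DNAJC30 (-0.48) and DNAJB5 (-0.70). HSPA1B (10.66 to 11.20 in mock, 11.25 and 11.08 with FK866) and DNAJB1 (10.41 to 10.44, then 10.67 and 10.79), both targets of heat shock factor 1, were not called.

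In CEM RES, FK866 gave 0 called chaperone genes (limma), beside 0% of all genes (0 of 17594). At an unadjusted p under 0.05, 4 of 70 passed (DNAJA4, DNAJB4, DNAJC13 and HSP90AB2P), beside 4.78% of all genes, and the double threshold took 1, DNAJA4, beside 1.34%. DNAJA4 was at 3.22, 3.37, 3.10 and 3.28 with FK866 and at 1.41 to 3.03 in mock, where 1 of 4 arrays was well above background. The lowest signals well above background on the mock arrays lay between 2.70 and 3.79, which spans the FK866 values, so no difference could be measured. The median difference was -0.01 over the chaperone genes and -0.01 over all genes. DNAJC3 was at 10.00, 9.89, 10.15 and 9.85 in mock and at 9.76, 9.75, 9.73 and 9.59 with FK866, so that the groups did not overlap, and its difference of -0.27 ± 0.12 was not called (adjusted p = 0.996). It was -0.25 within slide 5 and -0.28 within slide 6, each of which held 2 mock and 2 FK866 arrays.

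The test of the difference between both responses called 1 of the 70 genes, again DNAJC3, beside 0.131% of all genes (23 of 17594). The CEM RES response minus the CEM PA response was -1.37 ± 0.20 (adjusted p = 0.0276). This call was lost with the replicate block (-1.43, adjusted p = 0.059), and of the fits without 1 array it held in 1, that without mock replicate 3 of CEM PA (adjusted p = 0.033).

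**Figure D4:**
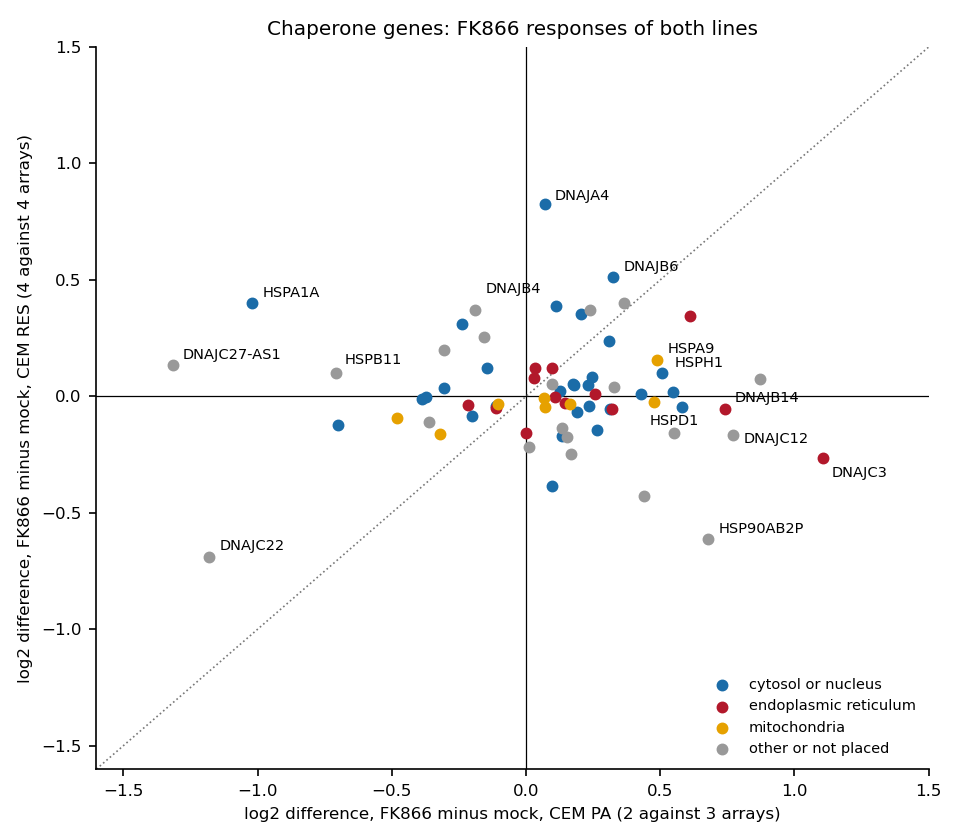
Log2 difference between FK866 and mock in CEM PA (x axis, 2 against 3 arrays) and in CEM RES (y axis, 4 against 4 arrays) for the 70 tested chaperone genes, coloured by compartment. DNAJC3 lies at 1.11 on the x axis and -0.27 on the y axis. No relation between the axes was tested.

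Some heat-inducible genes varied more within a group than between mock and FK866. In CEM RES, HSPA1A was at 1.30 and 2.64 on mock arrays 1 and 2 and at 5.73 and 5.25 on arrays 3 and 4, and with FK866 at 1.77 and 2.72 on arrays 1 and 2 and at 5.62 and 6.41 on arrays 3 and 4. HSPA6 was at 6.37 and 5.67 and then 8.30 and 7.47 in mock, and at 5.88 and 5.93 and then 8.0 and 7.96 with FK866. Arrays with equal replicate numbers were thus alike in these 2 genes whether or not FK866 was given. In CEM PA, HSPA6 was at 7.91 and 8.04 on the mock and FK866 arrays of scan session 1 and between 9.39 and 9.84 on those of session 2. HSPA1B had the same order with smaller gaps, at 8.98 and 8.95 and then 9.19 and 9.24 in mock, and at 8.49 and 8.96 and then 9.28 and 9.41 with FK866. DNAJB1 did not, with its low value of 9.97 on mock array 1 alone and 10.92 to 11.00 on the others. What the replicate numbers share was not tested.

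**Figure D5:**
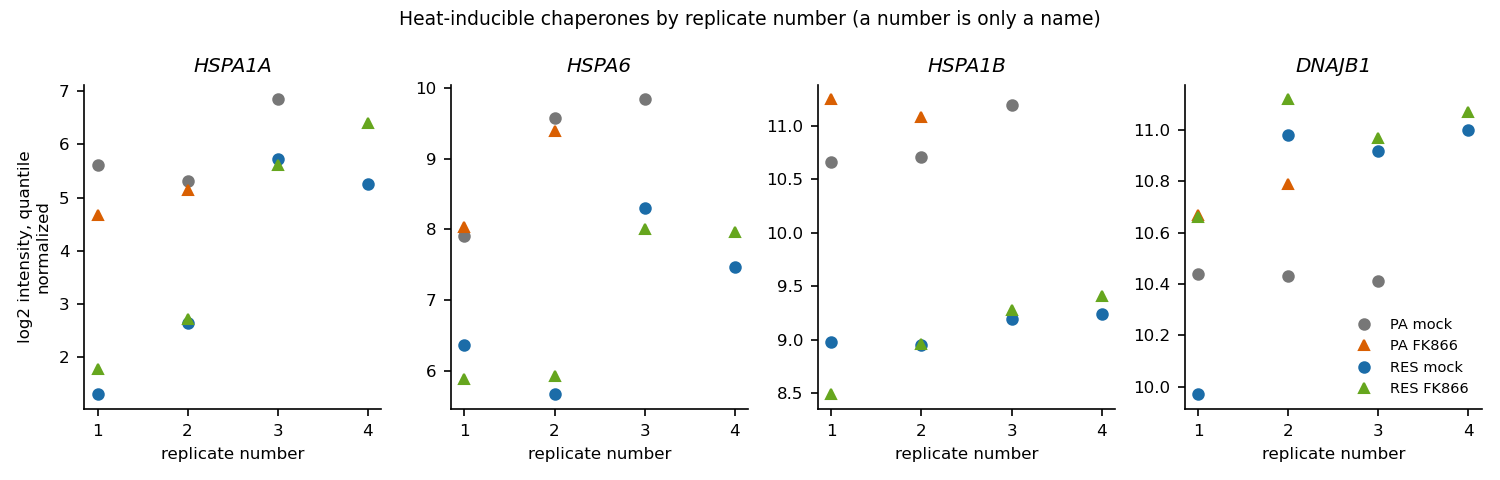
Log2 normalized intensity of HSPA1A, HSPA6, HSPA1B and DNAJB1 (panels) by replicate number (x axis), with mock and FK866 arrays of both lines as separate symbols. HSPA1A and HSPA6 of CEM RES are low at numbers 1 and 2 and high at 3 and 4, with mock and FK866 points close together.

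Other genes of the folding machinery were taken as lists. Their counts below stand beside 24.7% of all genes tested called higher and 23% called lower in mock-treated CEM RES. The heat shock factor list held 4 genes, HSF1, HSF2, HSF4 and HSBP1, which binds such factors and is not one itself. HSBP1 was higher in mock-treated CEM RES (0.96, adjusted p = 8.62e-05). Lower were HSF2 (-0.50, adjusted p = 0.0192, not called without mock replicate 3 of CEM PA) and HSF4 (-1.32, adjusted p = 0.0068). HSF1, the main heat-responsive factor, was not called (-0.06, adjusted p = 0.777). Of 22 cochaperones of HSP70 and HSP90, 11 were higher and 2 lower, with a median of 0.41. Higher were the HSP70 release factors BAG2 (1.57, adjusted p = 6.26e-05) and HSPBP1 (1.53, adjusted p = 5.79e-05), the HSP90 immunophilin FKBP4 (1.51, adjusted p = 3.10e-05) and CHORDC1 (1.5, adjusted p = 0.00039). The stress-induced BAG3 was lower (-0.91, adjusted p = 0.000193), as was the myosin chaperone UNC45A (-0.54, adjusted p = 0.019), the latter not called without mock replicate 1 or 2 of CEM PA.

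The next list held 17 genes of the cytosolic chaperonin TRiC and its partner prefoldin, with the cofactors PDCL3 and TXNDC9 counted in. Of these genes 9 were higher and 4, both cofactors among them, lower in mock-treated CEM RES (median 0.50). The TXNDC9 call was lost in 16 of 28 alternatives. TCP1 (1.18, adjusted p = 0.0013), CCT7 (1.13, adjusted p = 0.000486) and CCT3 (1.02, adjusted p = 0.00175) encode ring subunits and were higher, while the testis form CCT6B (-1.07, adjusted p = 0.00315) and PDCL3 (-0.72, adjusted p = 0.00176) were lower. The ring subunit CCT4 was also lower (-0.35, adjusted p = 0.0339), a call lost in 12 of 28 alternatives, and another CCT4 probe was called higher (0.41, adjusted p = 0.0269). TCP1 lost its call with the mean of its probes. In CEM PA, FK866 gave a positive difference in 16 of these 17 genes (median 0.22, beside -0.02 over all genes), and 0 were called. All of these genes were read on the same arrays, so the 16 are not independent results. These differences mix scan sessions. On the FK866 and mock arrays of session 1 alone, CCT5 (5.59 against 5.91), CCT6B, CCT8, TCP1 and PFDN5 were lower with FK866 and the others higher.

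Of 27 genes of ER folding and the unfolded protein response, 5 were higher and 11 lower in mock-treated CEM RES (median -0.25). SERPINH1, the collagen chaperone HSP47, was at least 18-fold lower (adjusted p = 1.24e-05, well above background on 2 of 4 CEM RES mock arrays). MANF, a secreted ER stress protein (-1.43, adjusted p = 0.000277), EIF2AK3, which encodes PERK (-1.36, adjusted p = 3.08e-05), and the oxidase ERO1L (-1.14, adjusted p = 0.000672) were lower. The disulfide isomerase PDIA3 (0.94, adjusted p = 0.000336), SEL1L of the degradation complex (0.99, adjusted p = 0.000489) and the stress factor DDIT3 (CHOP; 0.80, adjusted p = 0.0196) were higher. PDIA3 and SEL1L lost their calls with the mean of their probes, and DDIT3 without mock replicate 3 of either line. Of 25 genes of mitochondrial folding and import, 5 were higher, among them the import motor subunits PAM16 (1.32, adjusted p = 0.000213) and TIMM44 (1.02, adjusted p = 0.0222, not called without mock replicate 3 of either line), and 3 lower, the proteases SPG7 (-0.72, adjusted p = 0.000511) and LONP1 (-0.46, adjusted p = 0.0167, not called without mock replicate 3 of CEM PA) and the iron-sulfur cluster cochaperone HSCB (-0.66, adjusted p = 0.00636, not called with the mean of its probes). In these 5 lists FK866 gave 0 called genes in CEM PA and in CEM RES (limma), beside 0.512% and 0% of all genes. At an unadjusted p under 0.05, in CEM PA 0 genes of the heat shock factor list and 2 cochaperones passed. So did 2 genes of the TRiC and prefoldin list, 1 ER gene and 6 mitochondrial genes. In CEM RES 2 ER genes and 1 mitochondrial gene passed. Over all genes 13.5% passed in CEM PA and 4.78% in CEM RES.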

How the data were processed

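For each of the 13 arrays of 1 colour, the authors deposited the intensity of every spot from Agilent Feature Extraction (version 10.7.7.1 per the submitters' processing notes), background corrected within the array. They also deposited log2 values after their own quantile normalization, used here as an alternative. From the intensities, log2 signals were taken, outlier spots set to missing, and control spots removed. The arrays were then quantile normalized, and spots with the same probe were averaged. This normalization gives all arrays the same signal distribution, so that a shift of most genes in 1 direction would not be seen. The filter on dim signal kept a probe if it was well above background throughout at least 1 group (22751 of 34127 probes). Each gene was represented by its kept probe with the highest mean (17594 genes, of which 70 chaperone genes with 101 kept probes).

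The 4 groups were fitted in 1 model over all genes (limma 3.58.1, R 4.3.3, moderated, two-sided), with Benjamini-Hochberg adjustment over all genes. The procedure was tested on simulated data. Tables were handled in Python 3.11.15 with pandas 2.3.3, and matplotlib 3.10.9 drew the figures. Precision is limited by the number of arrays and by signal over background, since arrays hold no counts. Named are the canonical chaperones, the genes with the largest called differences in each comparison and list genes by the same order, and those whose result turned on a probe or array were named after their values were seen. The genes and lists were chosen with earlier results of these data known. Alternatives covered scaling to the 75th percentile, normexp background (offset 50), filters, probe rules, the deposited table, blocks, weights, the variance trend and each array left out. Blocks of scan session and the fit without its first session were chosen after seeing the data.

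As a check of pairing by replicate number, the deviations of each array from its group mean were correlated across genes between mock and FK866 arrays of equal number. The correlation was 0.440 and 0.343 for CEM PA, and for CEM RES 0.217, 0.390, 0.484 and 0.295. Between arrays of unequal number it ran from -0.440 to 0.235 in CEM PA and from -0.304 to 0.069 in CEM RES. The 2 FK866 arrays of CEM PA mirror each other around their mean, so each value there comes with its opposite. Replicate 1 of CEM PA is also all of scan session 1, so number and session cannot be told apart there. The number also served as a block. Symbols follow the array design. Of the 83 names 66 matched the promoter windows of RefSeq, and 85 windows were searched.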

Additional observations from a re-analysis of the deposited data

Results flagged for a closer look

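In 76 groups of 4 arrays the highest or lowest array was compared with the rest, and in 4 of them its gap to the nearest array took more of the range than Dixon's limit for groups of this size. Chance passes that limit in about 1 in 20 groups. In mock-treated CEM RES, replicate 1 lay below the other 3 arrays in DNAJB1 (9.97 against 10.92 to 11.00, gap 0.922 of the range), DNAJB6 (12.10 against 13.66 to 13.84, 0.898) and DNAJB9 (9.24 against 10.78 to 10.91, 0.924). The same array had 773 spots marked as outliers, while the other arrays had 195 to 344, and the part of this in the 3 low values was not tested. In FK866-exposed CEM RES, DNAJC28 was at 6.01 on replicate 4 and at 5.32 to 5.41 on the others (0.872).

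DNAJC3 stood out for a response to FK866 that differed between the lines by -1.37 (adjusted p = 0.0276, limma), with 11.00 and 10.72 above 9.61 to 9.87 in CEM PA and 9.59 to 9.76 below 9.85 to 10.15 in CEM RES. This call was lost in 17 of 27 alternatives, among them the mean of both probes and the replicate block.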

How the results depend on the processing

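The 32 calls between the mock-treated lines became 29 to 35 with 1 array left out and 39 with scaling to the 75th percentile (24 higher, 15 lower, against 17 and 15) or with array quality weights. That scaling moved the median of all genes in this comparison from 0.04 to 0.16. The 25 calls between the FK866-exposed lines became 14 to 26 with 1 array left out and 13 without the CEM PA arrays of scan session 1, where all genes went from 6239 to 3348. The 1 gene called for FK866 in CEM PA became 2 with normexp background, the variance trend or the double threshold, 3 with the replicate block or array quality weights, and 0 with the mean of probes, only the groups compared, the slide block or without session 1, and was 0 to 1 with 1 array left out. Over all genes the 90 calls became 220 with normexp background, 138 with the variance trend, 503 with the replicate block and 934 with quality weights. In CEM RES the count stayed 0 with each array left out, and was 1 by the double threshold. The 1 call for the difference between responses became 0 without the filter, with the mean of probes, the replicate block, the slide block or without session 1, 5 by the double threshold, and 0 to 1 with 1 array left out. As a random effect, the replicate block gave 32 and 26 calls between the lines.

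Signs turned where another probe was read. With each probe tested by itself, differences between the mock-treated lines were -0.67 for DNAJC10, 1.08 for DNAJC27, 1.27 for HSPB11, 0.41 for CCT4 and -2.77 for ERO1LB, and between the FK866-exposed lines 0.88 for DNAJB6, -0.50 for DNAJC10 and 0.89 for HSPA4. With the mean of probes, differences between the mock-treated lines were 0.25 for DNAJC27, 0.026 for CCT4, -0.40 for ERO1LB and -0.23 for SEL1L. The cause was not tested. Where a group was left with 1 array, it was assumed to vary like the others.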
